A study of Mus musculus with 4 samples.

Results

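The genes described here are 35 genes that mouse cells use to make, take up, move, store and oxidise cholesterol. They were chosen by name from knowledge of the pathway, but with earlier results of these data known. All 35 were found among the 50600 genes counted in each library. They were measured in T-helper 17 (Th17) cells, the CD4 T cells that make interleukin-17. The samples were primary cells of mouse strain C57BL/6NJ, and the labels link them to a protocol for differentiating CD4 T cells in culture. The labels give no genotype change and no treatment beyond that, and they leave age and developmental stage as unknown. RNA was sequenced in 4 libraries that the labels number as biological replicates 1 to 4 of a single group, so the data hold no second condition and allow comparisons between genes and between replicates only. The assay is total RNA-seq by its label, but the name of the linked library protocol refers to poly(A) RNA.

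Libraries held 37025016, 24696730, 32766291 and 36798195 counted fragments in replicates 1 to 4. All 5 T-cell markers and all 10 Th17 markers examined, among them Cd4, Il17a, Il17f and Il23r, reached 1 TPM (transcripts per 1000000) in every library. Summed TPM ranged from 0.28 to 0.468 for 4 B-cell markers, with Ms4a1 and Pax5 at 0. For 8 macrophage and dendritic markers the sum ranged from 4.03 to 6.38, of which Cd68 gave 3.91 to 6.25, while Lyz2 and C1qa were at 0. For 5 CD8 and natural killer markers it ranged from 14.2 to 22.1, carried by Nkg7 and Cd8b1, with Ncr1 and Klrb1c at 0. The labels record no sex and give all 4 libraries the same donor identifier, but the libraries fell into 2 kinds. Xist, the RNA that coats the inactive X chromosome, had 186 and 161 TPM in replicates 1 and 2 and 0.687 and 0.721 TPM in replicates 3 and 4. The Y-linked gene Ddx3y had 0.442 and 0.446 TPM in replicates 1 and 2 and 88.6 and 83.2 TPM in replicates 3 and 4. By these values replicates 1 and 2 were of female type and replicates 3 and 4 of male type, so not all 4 came from 1 animal. Within each kind, nothing in the labels says whether replicates came from separate animals or cultures. The p-values below rest only on these 4 samples, and the spread between them may be partly technical. In the dispersion test that spread includes the split by sex, because no term for it was fitted.

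Cholesterol is built from acetyl-CoA. The mevalonate enzymes make isoprenoid units, squalene synthase joins 2 farnesyl groups into squalene, and the sterol enzymes turn squalene into lanosterol and then into cholesterol. The same isoprenoids are used to anchor proteins in membranes and to make ubiquinone and dolichol. When sterol is scarce in the endoplasmic reticulum, SCAP carries the SREBP factors to the Golgi for cleavage, and the released fragment turns on genes of synthesis and uptake. INSIG proteins hold SCAP back when sterol is plentiful. Excess cholesterol is esterified, exported by ABC transporters, or converted to oxysterols that activate the nuclear receptor LXR. In Th17 cells the pathway is known for its intermediates, since sterols formed between lanosterol and cholesterol can bind ROR-gamma-t, the nuclear receptor that directs the Th17 programme.

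The promoter windows of 5 members are shown because these genes carry the highest enzyme and regulator levels (Cyp51, Hmgcs1, Srebf2) or form the Insig pair. Each window runs from 250 bases before to 50 bases after a RefSeq transcription start and was taken from the RefSeq promoter table on build GRCm38.p6, which is mm10. Hmgcs1 lies at chr13:119690101-119690400 on the plus strand, Cyp51 at chr5:4104648-4104947 on the minus strand, Insig1 at chr5:28071162-28071461 on the plus strand, Insig2 at chr1:121332540-121332839 on the minus strand and Srebf2 at chr15:82147019-82147318 on the plus strand. The Insig2 window is the outermost of 3 in the table. Each is written 5′ to 3′ on the strand of its gene. Capitals mark CCAAT, the core of the box bound by NF-Y, which reads ATTGG when it lies on the other strand, and TCACNCCAC, a core of the sterol regulatory element bound by SREBP.
Hmgcs1: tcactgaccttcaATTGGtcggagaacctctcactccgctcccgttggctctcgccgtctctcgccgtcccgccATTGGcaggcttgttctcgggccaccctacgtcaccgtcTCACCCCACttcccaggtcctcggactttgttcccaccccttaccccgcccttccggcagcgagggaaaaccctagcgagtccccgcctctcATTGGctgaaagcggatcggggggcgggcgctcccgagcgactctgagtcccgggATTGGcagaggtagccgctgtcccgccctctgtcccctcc
Cyp51: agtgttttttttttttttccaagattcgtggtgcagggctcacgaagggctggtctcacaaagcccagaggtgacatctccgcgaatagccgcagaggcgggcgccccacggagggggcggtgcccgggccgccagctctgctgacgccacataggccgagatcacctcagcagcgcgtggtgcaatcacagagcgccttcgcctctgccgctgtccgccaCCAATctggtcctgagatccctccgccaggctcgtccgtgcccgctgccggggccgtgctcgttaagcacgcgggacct
Srebf2: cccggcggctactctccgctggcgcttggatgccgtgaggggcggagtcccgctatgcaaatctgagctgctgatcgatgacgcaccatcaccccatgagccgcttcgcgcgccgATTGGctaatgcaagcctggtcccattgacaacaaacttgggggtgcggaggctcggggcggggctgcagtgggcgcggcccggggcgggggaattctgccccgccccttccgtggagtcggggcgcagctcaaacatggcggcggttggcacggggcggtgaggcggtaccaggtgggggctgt
Insig1: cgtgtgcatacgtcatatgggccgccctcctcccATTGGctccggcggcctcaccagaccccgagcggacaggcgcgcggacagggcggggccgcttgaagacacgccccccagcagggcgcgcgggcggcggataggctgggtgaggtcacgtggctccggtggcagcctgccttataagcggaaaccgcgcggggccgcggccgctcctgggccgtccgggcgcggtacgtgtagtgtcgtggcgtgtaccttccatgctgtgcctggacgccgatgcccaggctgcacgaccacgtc
Insig2: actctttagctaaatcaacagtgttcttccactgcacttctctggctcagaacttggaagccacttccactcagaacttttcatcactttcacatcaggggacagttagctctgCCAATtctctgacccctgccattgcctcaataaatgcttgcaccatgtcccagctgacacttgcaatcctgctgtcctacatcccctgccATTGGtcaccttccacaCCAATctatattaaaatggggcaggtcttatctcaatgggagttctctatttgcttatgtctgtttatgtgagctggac

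The 9-letter motif TCACNCCAC occurred in the windows of 1 member on either strand. This was Hmgcs1, whose window held it as TCACCCCAC, starting 137 bases before the transcription start. Of the 35 members, 27 had a window in the RefSeq table, with 35 windows in all. In all, 1.24% of 32851 windows held this motif, and 1.44% of the 27025 genes in the table had it in any window. A looser form, CACNNCAC, which every match of the longer motif also contains, was added after the data were seen. It was found in 7 of the 27 members (Acat2, Dhcr7, Hmgcs1, Hsd17b7, Insig1, Insig2 and Msmo1) and in 20% of their windows. The shares were 16.2% of all windows and 18.2% of all genes in the table. CCAAT was found in 23 of the 27 members, in 68.6% of their windows and in 15 of the 16 synthesis enzymes with a window. It occurred in 37.4% of all windows and in 38.5% of the 9992 windows of protein-coding genes that reached 1 TPM in each library. By gene, 41.1% of all in the table had it, where a gene counts if any of its windows does. Hmgcs1 held 4 copies, starting 237, 176 and 45 bases before and 10 bases after the start, and the Insig2 window shown held 3. The Insig2 windows not shown held none, and which start these cells used was not examined. These are matches of letters only, and binding was not measured.

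Every enzyme of cholesterol synthesis on the list was transcribed in these cells. All 19 were at 1 TPM or more in each library, and 17 were at 10 TPM or more. Of all 35 members, 31 reached 1 TPM in every library, against 44.8% of the 21764 protein-coding genes. The members that did not reach it were the esterifying enzyme Soat2 and the oxysterol enzymes Ch25h, Cyp27a1 and Cyp7b1. TPM here is the fragment count over the summed exon length of the gene, scaled to 1000000 per library, and the levels of different genes are compared only on this scale. In cultured cells measured in bulk, fewer expressing cells and less RNA per cell cannot be told apart.

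**Figure D1:**
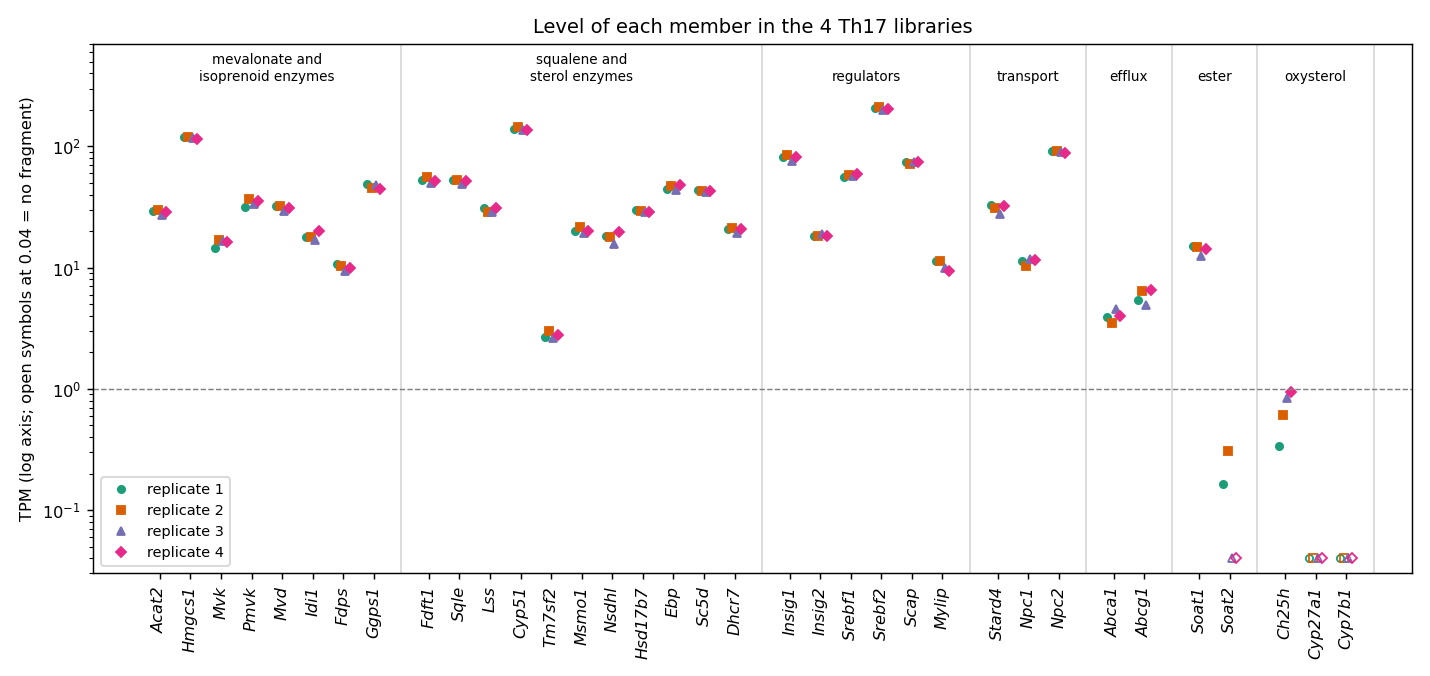
Level of each of the 35 members in the 4 Th17 libraries, in TPM on a log axis, with genes grouped by role and synthesis enzymes in pathway order. Each symbol is 1 library, open symbols are libraries with no fragment, and the dashed line marks 1 TPM. The 4 libraries lie close together for the 19 synthesis enzymes, all of which are above the line, while Soat2, Ch25h, Cyp27a1 and Cyp7b1 lie below it.

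The mevalonate and isoprenoid enzymes had a group median of 4.95 ± 0.06 on the log2(TPM + 1) scale (SD, n = 4 libraries), and the squalene and sterol enzymes also had 4.95 ± 0.06. Both medians were near that of the 9761 protein-coding genes at 1 TPM or more in every library, 5.01 ± 0.01. In summed level the 8 mevalonate and isoprenoid enzymes held 304.2 ± 4.38 TPM and the 11 squalene and sterol enzymes 453 ± 11.9 TPM. With the summed exon length, levels within each group spanned more than 10-fold, so the listed enzymes were far from equal in RNA on this scale. In the mevalonate group this span ran from Fdps, whose count may be too low, at 10.1 TPM to Hmgcs1 at 118 TPM. With the longest annotated transcript as the length, these means were 11.38 and 87.05 TPM. In the squalene and sterol group the span ran from Tm7sf2, whose count may also be too low, at 2.77 TPM to Cyp51 at 139.3 TPM. The next lowest enzyme of that group was Nsdhl, at 17.83 TPM.

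At the entry of the pathway, Acat2, the cytosolic thiolase that joins acetyl-CoA units, had 29.4, 30.0, 27.2 and 29.0 TPM in replicates 1 to 4. Hmgcs1, the HMG-CoA synthase of the next step, had 120.1, 118.7, 117.5 and 115.5 TPM and was the highest of the mevalonate enzymes. At 118 ± 1.94 TPM (SD, n = 4) it stood at percentile 82.6 of the detected protein-coding genes, and its coefficient of variation (CV) of 1.64% was about that of counting alone, 1.67%. Mvk, mevalonate kinase, was lower, at 14.6, 17.0, 16.7 and 16.2 TPM. Pmvk, phosphomevalonate kinase, had 31.9, 37.0, 33.6 and 35.6 TPM. Both kinases were lowest in replicate 1, unlike most of the other enzymes. Mvd, the decarboxylase that yields isopentenyl pyrophosphate, had 32.6, 32.4, 29.5 and 31.1 TPM. Idi1, which isomerises that product, had 18.0, 18.0, 16.9 and 20.2 TPM and was highest in replicate 4.

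The branch-point enzymes differed in level by the deposited counts. Fdps, which makes farnesyl pyrophosphate for both sterols and prenylation, had 10.7, 10.3, 9.46 and 9.93 TPM, the lowest of the mevalonate and isoprenoid group. Ggps1, which extends that product to geranylgeranyl pyrophosphate outside the sterol branch, had 49.2, 45.6, 48.3 and 44.7 TPM. Fdps is a gene whose count may be too low. On the same strand, 26.7% of its exon bases overlapped the annotated gene Gm43738, which had 0 fragments in every library. Of its 50-base words, 26.2% occurred in transcripts of other genes, and 23.4% in Gm43738 itself. The program's default leaves out fragments that fall on several genes or places. With the longest annotated transcript in place of the summed exons, the mean of Ggps1 was 20.7 TPM in place of 46.9 TPM. That transcript comes from a later annotation release than the counts. It has 4244 bases, more than the 2367 exon bases counted, so part of this change is a difference between annotations. Shared words also touched Acat2, with 39.1% of its words in Acat3 (0 fragments in every library), and Idi1, with 25.3% shared.

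Fdft1, squalene synthase, commits farnesyl pyrophosphate to sterols and had 52.6, 55.5, 50.4 and 51.7 TPM. Its exons overlapped those of the cathepsin gene Ctsb over 26.8% of bases, but on the opposite strand, which the strand-aware counting keeps apart. Sqle, the squalene epoxidase, had 52.4, 53.4, 49.3 and 52.3 TPM. The ranges of these neighbouring steps overlapped. With the longest-transcript length, Fdft1 had a mean of 32.1 TPM and Sqle 50.9 TPM. For Fdft1 that transcript, from a later annotation release, has 3698 bases, more than the 2860 exon bases counted. This alternative therefore cannot settle their order. Lss, which closes the ring to form lanosterol, had 31.3, 28.7, 28.6 and 30.9 TPM.

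Cyp51, the lanosterol demethylase that acts on the first sterol of the pathway, was the highest of all 19 synthesis enzymes. It had 138.4, 144.2, 137.0 and 137.5 TPM, with a mean of 139.3 ± 3.33 (SD, n = 4) and percentile 85.5 of the detected protein-coding genes. Tm7sf2, a reductase of the step after Cyp51, was the lowest, at 2.69, 3.02, 2.61 and 2.76 TPM and percentile 6.67. The same reaction is carried out by Lbr, the lamin B receptor, which is no member and had 82.7, 81.9, 75.8 and 76.8 TPM. Lbr was 28.6-fold higher than Tm7sf2 in mean TPM and higher in 4 of 4 libraries; this pair was chosen after the values were seen and was not tested. On the same strand, 15.3% of the exon bases of Tm7sf2 overlapped Vps51, so part of its fragments may have been left out.

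The enzymes that remove the C-4 methyl groups of the sterol were at middle levels. Msmo1, the methyl oxidase, had 19.9, 21.7, 19.4 and 20.1 TPM. Nsdhl, the dehydrogenase and decarboxylase, had 18.1, 18.0, 15.5 and 19.7 TPM, lowest in replicate 3 and highest in replicate 4. Hsd17b7, the ketoreductase, had 30.0, 29.1, 28.6 and 28.8 TPM. Substrates of this stage lie among the sterol intermediates that have been described as ROR-gamma-t ligands. Ebp, the sterol isomerase, had 44.3, 47.5, 43.8 and 48.1 TPM. Sc5d, the desaturase that follows, had 43.3, 43.0, 42.2 and 43.3 TPM and the smallest CV of all 31 detected members, 1.18%. Dhcr7, a terminal reductase, had 20.95, 21.2, 19.5 and 20.8 TPM. With the longest-transcript length, the means of Msmo1 and Dhcr7 were 33.2 and 33.7 TPM, against 20.3 and 20.6 TPM with the summed exons.

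Nsdhl and Ebp lie on the X chromosome. Their values did not separate replicates 1 and 2, which held Xist, from replicates 3 and 4, which held Ddx3y. In both genes replicate 3 was the lowest library and replicate 4 the highest.

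Among the regulators, Srebf2, which encodes SREBP2, the main activator of cholesterol genes, was the highest member of the whole list. It had 206.4, 211.0, 198.0 and 204.2 TPM, with a mean of 204.9 ± 5.39 (SD, n = 4) and percentile 90.8 of the detected protein-coding genes. Srebf1, whose products act chiefly on fatty acid genes, had 55.6, 58.4, 56.9 and 59.3 TPM. Scap, the escort of both precursors, had 74.0, 72.3, 74.0 and 74.2 TPM. Insig1, which retains SCAP and is itself induced by SREBP, had 82.4, 85.6, 76.1 and 81.9 TPM. Insig2, its paralogue, had 18.3, 18.3, 18.9 and 18.3 TPM. Mylip, the ubiquitin ligase that LXR induces to degrade lipoprotein receptors, had 11.4, 11.4, 9.89 and 9.46 TPM, lower in replicates 3 and 4 than in replicates 1 and 2.

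Of the transport genes, Npc2, the soluble lysosomal protein that binds cholesterol freed from lipoproteins, had 92.6, 91.2, 89.9 and 88.6 TPM. Npc1, the membrane protein that takes cholesterol over from it, had 11.4, 10.3, 11.8 and 11.5 TPM. Stard4, a soluble carrier of cholesterol between membranes, had 33.0, 31.0, 27.8 and 32.1 TPM, lowest in replicate 3. The exporters were low. Abca1, which loads cholesterol onto lipid-poor apolipoproteins, had 3.93, 3.49, 4.56 and 3.97 TPM. Abcg1, which exports it to lipoprotein particles, had 5.40, 6.44, 4.88 and 6.56 TPM and the largest CV among the detected members, 14%. Abcg1 was high in replicates 2 and 4, while Abca1 was highest in replicate 3 and lowest in replicate 2.

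Soat1, which esterifies cholesterol for storage, had 15.2, 14.9, 12.6 and 14.2 TPM. Its paralogue Soat2, best known from intestine and liver, had 4, 5, 0 and 0 fragments in replicates 1 to 4, a mean of 0.118 TPM. This mean is under the level that 3 fragments give in the shallowest library, 0.185 TPM, though in that library, replicate 2, Soat2 had 0.308 TPM. Of the oxysterol enzymes, Ch25h, the cholesterol hydroxylase that macrophages induce on stimulation, had 5, 6, 11 and 14 fragments, or 0.3402, 0.606, 0.843 and 0.951 TPM. Its CV of 39.6% was close to the 36.4% that counting alone gives. Cyp27a1, the mitochondrial sterol hydroxylase, and Cyp7b1, the oxysterol hydroxylase that acts on its products, had no fragment in any library. At the depth of the shallowest library, 3 fragments, taken as the limit that a count of 0 allows, correspond to 0.188 TPM for Cyp27a1 and 0.189 TPM for Cyp7b1. These limits cover counting error only.

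Ordered by mean TPM, the list ran from Srebf2 through Cyp51, Hmgcs1, Npc2, Insig1, Scap and Srebf1, and the ranges over the 4 libraries of these 7 genes did not overlap between neighbours. Fdft1 and Sqle came next with overlapping ranges, then Ggps1 and Ebp, also overlapping, and then Sc5d. Pmvk, Mvd, Stard4, Lss, Hsd17b7 and Acat2 followed, with each neighbour overlapping the next, so their order is not beyond their spread. The same held for Dhcr7 and Msmo1, then for Insig2, Idi1, Nsdhl, Mvk and Soat1, and then for Npc1, Mylip and Fdps. Abcg1, Abca1, Tm7sf2, Ch25h and Soat2 closed the order, each apart from its neighbours. Of the 32 neighbouring pairs with any fragment, 18 had ranges apart and 14 overlapped. This order holds for the summed exon length and changes with the length used. With the longest annotated transcript, Srebf2 (159.2 TPM) and Cyp51 (123.7 TPM) kept their places, but Scap, at 102.5 TPM, stood above Hmgcs1 at 87.05 TPM, Insig1 at 73.9 TPM and Npc2 at 70.8 TPM. For Hmgcs1 that transcript, from a later annotation release, has 3464 bases against 3233 exon bases counted.

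Pairs of paralogues or partners in the same process were compared within each library, as the difference of log2(TPM + 1). Insig1 exceeded Insig2 by 2.09 ± 0.09 (SD, n = 4), a 4.42-fold difference of mean TPM, and did so in 4 of 4 libraries. Srebf2 exceeded Srebf1 by 1.81 ± 0.05, or 3.56-fold, in 4 of 4 libraries. Npc2 exceeded Npc1 by 2.90 ± 0.09, or 8.05-fold, also in 4 of 4. Soat1 exceeded Soat2 in 4 of 4 libraries, but the mean of Soat2 was under its counting limit. The size of this difference is set by the pseudocount: it was 3.77 with 1 TPM added and 6.30 with 0.1 TPM added. Abcg1 exceeded Abca1 by 0.45 ± 0.28 in 4 of 4 libraries, and with the longest-transcript length this difference was 0.01, positive in 2 of 4 libraries. For Abcg1 that transcript, from a later annotation release, has 5832 bases, more than the 4066 exon bases counted. When the signs of the 4 differences were flipped in every combination (an exact test, two-sided), each of the 5 pairs gave p = 0.13, raw and after Benjamini-Hochberg adjustment over the 5 pairs. With 4 libraries no smaller value is possible, and none of the pairs could pass 0.05.

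The spread between replicates was small for most members. Among the 31 members at 1 TPM or more in every library, the median CV of TPM was 4.74%, against 4.32% for the 9761 protein-coding genes detected in the same way. Each gene's dispersion was tested with edgeR's quasi-likelihood fit against that of genes of like abundance, with Benjamini-Hochberg adjustment over 11847 genes. Of the 35 members, 31 passed the count filter and 0 were called at an adjusted p under 0.05, with the same count of 0 under every alternative run, DESeq2 size factors included. Over all genes the test called 0.304%, or 36 genes, so a count of 0 among 31 is near the background and says little about the members. The 36 may hold genes that follow the split in Xist and Ddx3y, as the fit had no term for it. This background count was 15 without replicate 4 and 17 with a prior that was not robust. At an unadjusted p under 0.05, 1 member passed, and 5.69% of all genes did. That member was Soat1, with 3.34 times the dispersion of the trend (edgeR adjusted p = 0.808). Next came Stard4 at 2.69 times (adjusted p = 0.934), with Nsdhl and Abcg1 at 2.25 times. The median ratio was 1.09 for the members and 0.804 for all genes tested.

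**Figure D2:**
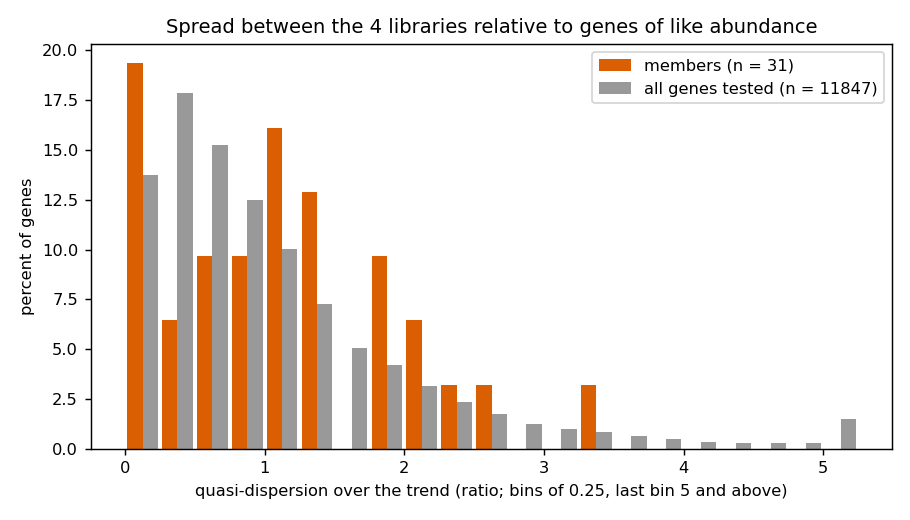
Distribution of each gene's quasi-dispersion between the 4 libraries over the trend for its abundance, as percent of genes in bins of 0.25, for the 31 members that passed the count filter (orange) and all 11847 genes tested (grey). The last bin holds ratios of 5 and above. The members lie within the range of the other genes, and the highest is Soat1 at 3.34.

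For most synthesis enzymes the lowest of the 4 libraries was the same one. Of the 19 enzymes, 15 had their lowest value in replicate 3, on the log2 CPM (counts per 1000000) scale with TMM normalisation, against 25.3% of all 11847 genes tested. All 11 squalene and sterol enzymes were lowest there, as were 4 of the 8 mevalonate and isoprenoid enzymes. The shift was small. The median deviation from each gene's mean was -0.07 log2 in replicate 3 for the enzymes, against 0.06 in replicate 2, and 0.00 in every replicate for all genes tested. Summed TPM of the 19 enzymes was 760.3, 774.5, 736 and 758.2 in replicates 1 to 4. The count was 15 of 19 with DESeq2 size factors and 13 of 17 without the X-linked Nsdhl and Ebp. This pattern was noticed after the values were seen and was not tested. Of the 10 Th17 markers, 4 were lowest in replicate 3 by TPM (Il17a, Il17f, Il23r and Ccr6). Il21, Ahr, Maf and Irf4 were lowest in replicate 4, Rora in replicate 2 and Batf in replicate 1. The CVs of Il17a (5.11%) and Il23r (7.2%) were below those of counting alone (6.72% and 14.1%), while those of Il17f and Ccr6 were above.

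**Figure D3:**
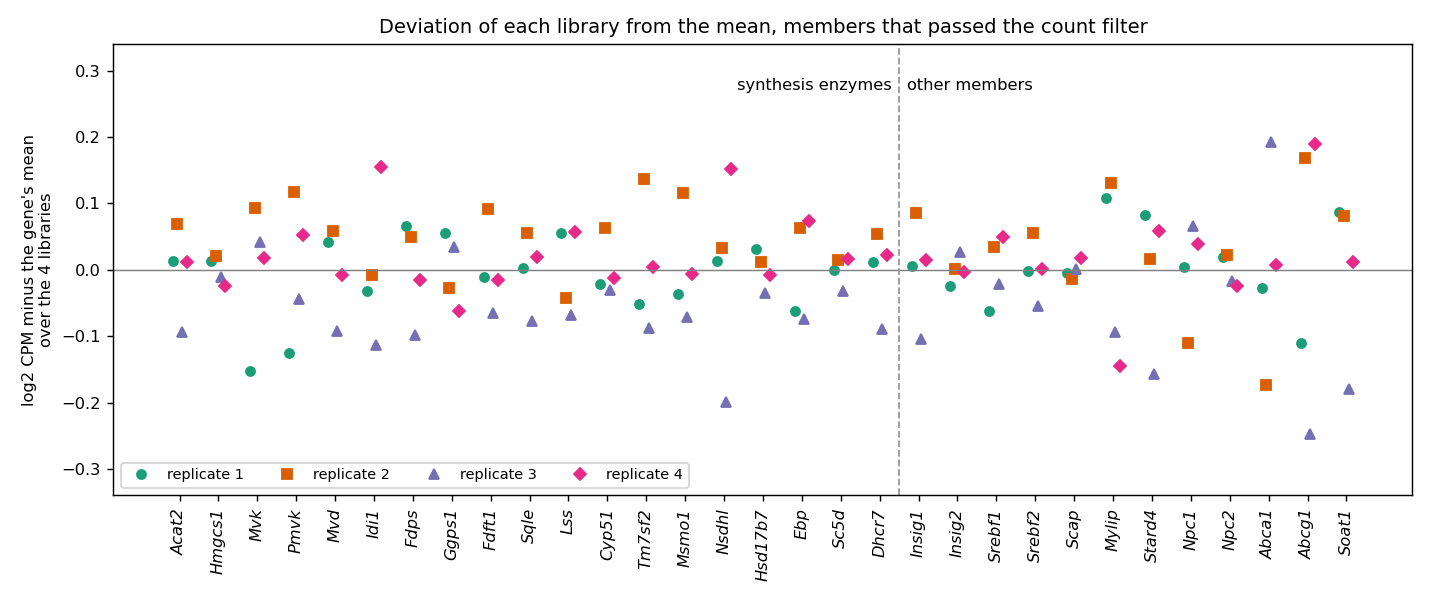
Deviation of each library from the gene's mean over the 4 libraries, in log2 CPM, for the 31 members that passed the count filter, with the 19 synthesis enzymes left of the dashed line. Each symbol is 1 library. Replicate 3 (purple triangles) is the lowest library for 15 of the 19 enzymes, including all 11 from Fdft1 to Dhcr7, and most deviations are within 0.2.

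Outside the enzymes, 2 of 6 regulators, 1 of 3 transport genes, 1 of 2 exporters and Soat1 were lowest in replicate 3. Insig1 was, at a deviation of -0.10, and so was Srebf2, at -0.06. Abca1 was highest there, at 0.19, while Abcg1 was lowest, at -0.25.

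The wider pathway was described from 7 lists with 66 genes, none of them members. All 4 genes of the remaining synthesis and acetyl-CoA supply list reached 1 TPM in each library. The highest was Acly, the ATP-citrate lyase that supplies cytosolic acetyl-CoA, at 321.5 ± 2.00 TPM (SD, n = 4), followed by Lbr at 79.3 ± 3.50 TPM. Acss2, which makes acetyl-CoA from acetate, was the lowest at 2.05 ± 0.121 TPM. All 12 genes of the isoprenoid branches were at 1 TPM, with Rabggtb, a subunit of the enzyme that prenylates Rab proteins, at 279.8 ± 7.28 TPM and Nus1, a subunit of the dolichol-making prenyltransferase, at 146.4 ± 2.72 TPM. Pdss2, for the ubiquinone side chain, was lowest at 7.71 ± 0.446 TPM.

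All 9 genes of SREBP cleavage and sterol-regulated degradation reached 10 TPM in each library. Faf2, which helps extract proteins from the membrane of the endoplasmic reticulum, had 70.1 ± 1.06 TPM, and Rnf145, a ubiquitin ligase of that membrane, had 60.2 ± 1.83 TPM. Mbtps2, the X-linked protease that makes the final cut of SREBP, was the lowest at 18.5, 16.4, 16.7 and 16.2 TPM. Of the 16 uptake and transport genes, 13 reached 1 TPM in every library. Gramd1a, which carries cholesterol from the plasma membrane to the endoplasmic reticulum, had 172.9 ± 6.28 TPM, and Tmem97, a sterol-regulated partner of NPC1, had 132.6 ± 3.89 TPM. Vldlr, a lipoprotein receptor, had 5 fragments over all libraries, a mean of 0.0128 TPM that is under its counting limit of 0.0407 TPM. The lipoprotein receptors Scarb1 and Lrp8, chosen after their values were seen, had 26.0 ± 0.797 and 20.01 ± 0.650 TPM.

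Of 10 LXR and sterol-sensing receptors and targets, 8 reached 10 TPM in each library. Rora, a nuclear receptor of the Th17 programme, had 110.3 ± 5.99 TPM. Nr1h2, which encodes LXR-beta, had 98.7, 95.4, 100.5 and 102.4 TPM, while Nr1h3, which encodes LXR-alpha, had 14 fragments over all libraries and a mean of 0.143 TPM, under its counting limit of 0.163 TPM in the shallowest library. This pair was chosen after the values were seen and was not tested. No size is given for its difference because the mean of Nr1h3 was under that limit. Abcg4 was the lowest of the list at 0.101 ± 0.0228 TPM. Gpr183, the receptor through which dihydroxylated oxysterols guide immune cells, was also named after its values were seen and had 39.5 ± 2.06 TPM, in cells where the oxysterol-making members were at or near 0.

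The other oxysterol and bile acid enzymes were nearly silent. Of 7 genes, 1 was at 1 TPM or more in every library, Sult2b1, a cholesterol sulfotransferase, at 1.99 ± 0.371 TPM. Cyp11a1, which cuts the cholesterol side chain in steroid synthesis, had 1.25 ± 0.237 TPM. The liver enzymes Cyp7a1 and Cyp8b1 had no fragment in any library, which allows up to 0.0981 and 0.21 TPM in the shallowest. Of 8 fatty acid synthesis targets of SREBP, 5 reached 1 TPM in each library. Fasn, the fatty acid synthase, had 289.2 ± 5.12 TPM. Scd2, a desaturase of fatty acids, had 31.4, 37.8, 30.6 and 40.3 TPM in replicates 1 to 4, higher in replicates 2 and 4 than in replicates 1 and 3. It was the only gene of the 7 lists called variable between replicates (edgeR adjusted p = 0.0399, with 10.5 times the dispersion of the trend). The call was lost without replicate 4 (adjusted p = 0.475) and with a prior that was not robust (adjusted p = 0.284), and over the other alternatives the adjusted p ranged from 0.000123 to 0.0398. Me1, the cytosolic malic enzyme that makes NADPH, was the lowest, with 2 fragments, both in replicate 4. By list, the tested genes that were lowest in replicate 3 numbered 2 of 4 for the remaining synthesis and acetyl-CoA supply, 3 of 12 for the isoprenoid branches and 5 of 9 for SREBP cleavage and degradation. They numbered 5 of 15 for uptake and transport, 0 of 8 for the LXR list, 2 of 3 for the other oxysterol enzymes and 3 of 7 for the fatty acid targets.

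**Figure D4:**
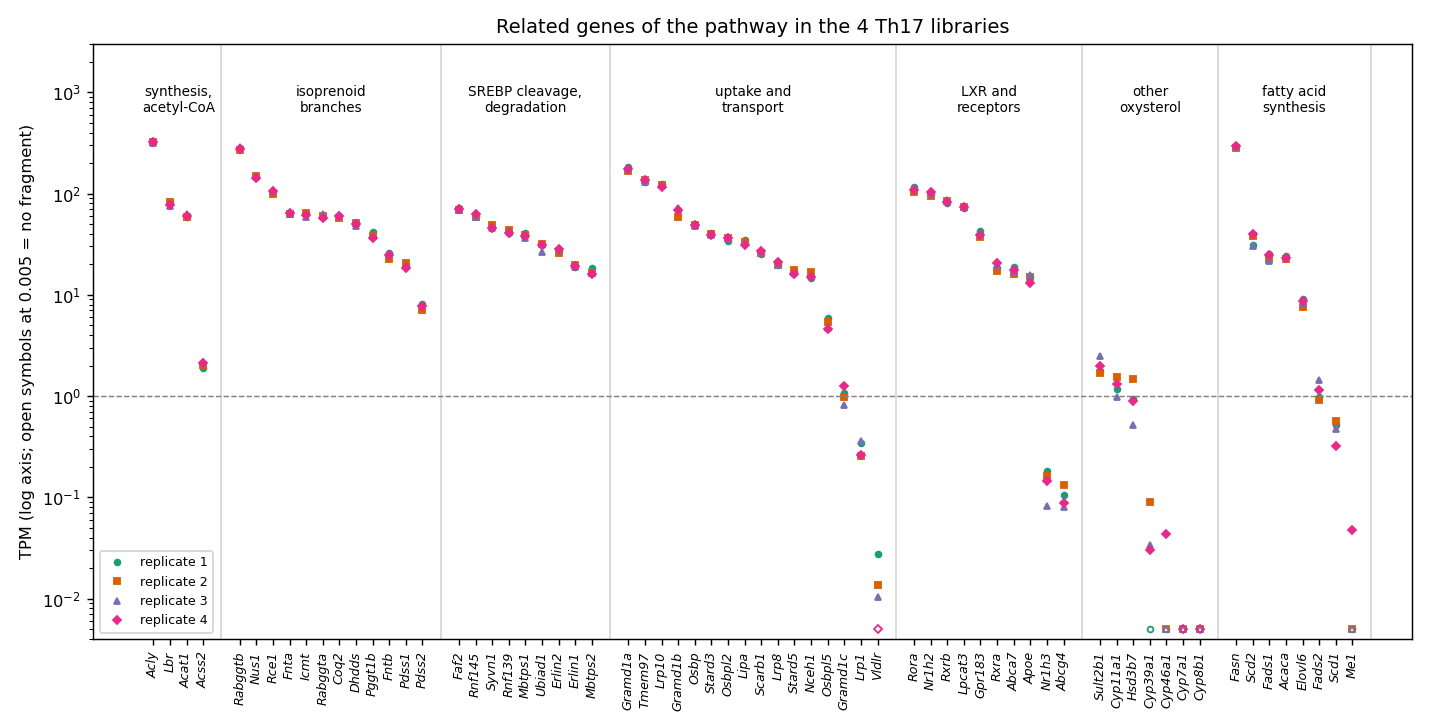
Level of the 66 related genes in the 4 Th17 libraries, in TPM on a log axis, with genes ordered by mean TPM within each of the 7 lists. Each symbol is 1 library, open symbols are libraries with no fragment, and the dashed line marks 1 TPM. The lists of SREBP cleavage and of isoprenoid branches lie wholly above the line, while 6 of the 7 other oxysterol genes fall below it in some library.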

How the data were processed

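RNA of 4 mouse Th17 libraries, all in 1 group by the labels, was measured as fragments per gene. The deposited files hold raw counts for 50600 genes. Per the file headers, featureCounts 1.4.6-p4 counted paired-end alignments against GENCODE vM13 (alignment names carry the tag star2), over exons summed per gene, with both ends aligned and strand option 2. The options for fragments on several places or genes are not in those headers. The build is mm10 per the labels, and output names carry a time tag that the labels do not explain. No source used here gives the version of the aligner.

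From these counts, TPM was computed as the count over the summed exon length that the files give, a length over all isoforms, so that exons a gene does not use lower its TPM. Symbols and gene classes came from GENCODE M21 (mm10), which matched 50376 identifiers. A gene was called detected at 1 TPM in every library. No column of per-sample values was left unused. The 35 members and the 7 related lists were chosen with earlier results of these data known. Named genes that are no members were the 2 highest and the lowest of each list and any with an adjusted p under 0.05, and other names are marked in the text.

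The spread between replicates was examined in R 4.3.3 with edgeR 4.0.16 (TMM, filterByExpr, intercept only, robust prior, older deviance estimate). Each gene's quasi-dispersion over the trend was referred to the upper tail of the F distribution with 24.8 prior degrees of freedom, and p-values were adjusted over all 11847 genes that passed the filter. Tested on simulated data, the script returned genes given extra spread. That spread was set larger than most deviations among the members. The check therefore does not show that spread as small as theirs would be called. Alternatives were DESeq2 1.42.0 size factors, other filters and priors, another pseudocount, another gene length, TPM without mitochondrial and ribosomal RNA genes, and each replicate left out. The other gene length was the longest transcript in GENCODE M21, while counts and summed exons follow vM13. Shared sequence was the share of 50-base words found in other annotated transcripts. Promoters were read from a RefSeq table on GRCm38.p6, and protein sequences were not used here. The remaining steps ran in Python 3.11.15 (scipy 1.17.1, pandas 2.3.3, numpy 2.4.6), with figures from matplotlib 3.10.9. The list does not hold every gene of the pathway, and the others are not analysed here; some genes of the related lists are not reported here. Libraries held 24696730 to 37025016 fragments, and 3 fragments were taken as the limit that a count of 0 allows.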

Additional observations from a re-analysis of the deposited data

Results flagged for a closer look

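Among the 56 genes that the rule for names covers, 3 had a library whose gap to the nearest other library took more of the range over the 4 libraries than Dixon's 95% critical value allows, which chance reaches in about 1 in 20 genes. For Insig2 the gap was 0.931 of the range, with replicate 3 at 18.9 TPM and the other replicates at 18.3 TPM, and its CV of 1.57% was below the 4.07% of counting alone. For Scap it was 0.861, with replicate 2 at 72.3 TPM and the others at 74.0 to 74.2 TPM. For Me1 it was 1.0, because its 2 fragments were both in replicate 4.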

How the results depend on the processing

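No paired analysis was possible because there is 1 group. No member was called variable under any alternative, and the smallest adjusted p was 0.709, for Soat1 without replicate 2 (edgeR). The count over all genes was 94 without the count filter, which tests more genes, 17 with a prior that was not robust, and 15 to 37 with each replicate left out, lowest without replicate 4; the cause was not tested. With each replicate left out, 31 members stayed at 1 TPM, and group medians ranged from 4.94 to 4.98 for the mevalonate enzymes, from 4.93 to 4.97 for the sterol enzymes and from 6.04 to 6.05 for the regulators. With the longest-transcript length these medians were 4.57, 5.11 and 6.07. The regulators' median was 6.03 with a pseudocount of 0.1 and 6.08 without mitochondrial and ribosomal RNA genes, and their mean was 5.66, against a median of 6.05. The longest-transcript length changed member means by 0.441 to 1.64 times, and by over 1.5 times either way for Ggps1, Fdft1, Msmo1, Dhcr7 and Abcg1. For Ggps1, Fdft1 and Abcg1 that transcript is longer than all exon bases counted. Part of their change is therefore a difference between annotation releases. Every pair kept its direction in the mean under every alternative run, but Abcg1 and Abca1 were about equal with the longest-transcript length. Their difference was then 0.01, positive in 2 of 4 libraries. The count of enzymes lowest in replicate 3 was 15 to 16 of 19 with each other replicate left out. Depth limits what can be said of Soat2, Ch25h, Cyp27a1, Cyp7b1 and Nr1h3.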
